A study of Monodelphis domestica with 6 samples.

Results

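The forkhead (FOX) genes encode transcription factors that bind DNA through a winged helix, the forkhead box, and that are sorted by the sequence of this domain into subfamilies named by letters. They were chosen by symbol alone, as every gene of the deposited tables whose symbol is FOX followed by a letter from A to S and a number. This gave 40 genes in 19 subfamilies, of 35665 genes in the tables. Subfamilies differ in role. FOXA factors open closed chromatin in endoderm and the floor plate, FOXC, FOXF and FOXL1 shape mesoderm and mesenchyme, FOXM1 drives genes of mitosis, FOXO factors answer to insulin and stress signals, FOXK and FOXP factors act mainly as repressors, and FOXH1 carries NODAL signals to DNA with SMAD proteins.

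The study compared skin fibroblasts of 10-day-old female gray short-tailed opossums (Monodelphis domestica), called neoSFs, with induced pluripotent stem cells made from them, called monoiPSCs. Both cell types came from the fully inbred strains FD2M1 and LSD1. The 2 neoSF libraries were 1 early passage primary culture per strain, grown in serum. The 4 monoiPSC libraries were the FD2M1 line and the LSD1 line, each at passage 15 and passage 25, grown without feeder cells in medium with human LIF, bFGF and the ROCK inhibitor Y27632. The lines had been made with OriP/EBNA episomal plasmids that carry human OCT4, SOX2, NANOG, KLF4, LIN28 and cMYC, with a further plasmid for a dominant negative p53. No group carried a deletion, and no drug treatment was varied apart from cell type. Serum, added factors and the ROCK inhibitor differed between the neoSF and monoiPSC media, so medium and cell type cannot be told apart. The 4 monoiPSC libraries are 2 lines sampled at 2 passages, so p-values measure the spread between these libraries and not between independent reprogramming events. The neoSFs were read as shorter single-end reads in-house and the monoiPSCs as longer paired-end reads by a service, and this difference and cell type cannot be told apart.

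Total counts were 14278794 and 16982978 in the neoSF and 28684754 to 35564261 in the monoiPSC libraries, so that low genes were measured less precisely in neoSFs. Values are normalized read counts (NRCs), which are the deposited log2 values put back on the linear scale. A count of 3, taken here as the detection floor, was worth 5.85 and 4.75 NRC in neoSFs and 1.55 to 1.88 NRC in monoiPSCs. Where a gene was at the floor in both neoSFs, its fold is given as a lower bound on TMM-scaled counts, which is not exactly the NRC mean divided by the floor in NRC. The cells carried the markers of their labels. All 7 pluripotency markers tested were higher in monoiPSCs, with a summed NRC of 10590 to 14752 against 158 and 115 in neoSFs. All 9 fibroblast markers tested were lower, with a summed NRC of 2520 to 7598 against 1541513 and 1675953. In bulk RNA, fewer cells that express a gene and less RNA per cell cannot be told apart.

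Of the 40 forkhead genes, 29 had at least 20 NRC in both neoSF or in all 4 monoiPSC libraries and were tested. Differentially expressed (DE) genes had a p of at most 0.05 in edgeR's quasi-likelihood test, after Benjamini-Hochberg adjustment over all genes tested, and a fold change of at least 2. By this rule 10 forkhead genes were higher in monoiPSCs, 11 were lower and 8 were not DE. Over all 13072 genes tested, 24.3% were higher, 21.6% were lower and 45.9% were DE in either direction. A gene that passed the filter in 1 cell type alone mostly had less room to miss the threshold. This class holds 6 forkhead genes expressed in neoSFs only, of which 5 were lower, and 5 in monoiPSCs only, all higher. FOXP3 was the exception, since it missed the filter in monoiPSCs only through 19.0 NRC in the LSD1 line at passage 15. The same limit holds for genes of the marker, partner and target lists given below. Of the 18 expressed in both cell types, 5 were higher and 6 were lower, which is 61.1%, beside 38.6% of the 10979 genes expressed in both, of which 18.8% were higher and 19.7% lower. The median log2 fold change of all genes tested was 0.08. TMM scaling assumes that most genes do not change, so this median follows in part from the scaling. The directions given here are relative to most genes tested, and RNA per cell was not measured. The monoiPSC libraries all lay above both neoSF libraries for 10 forkhead genes and below both for 15, and the groups overlapped for FOXD1, FOXO4, FOXP3 and FOXS1. Over all genes tested, 73.2% did not overlap, 36.1% lying above and 37.1% below.

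**Figure D1:**
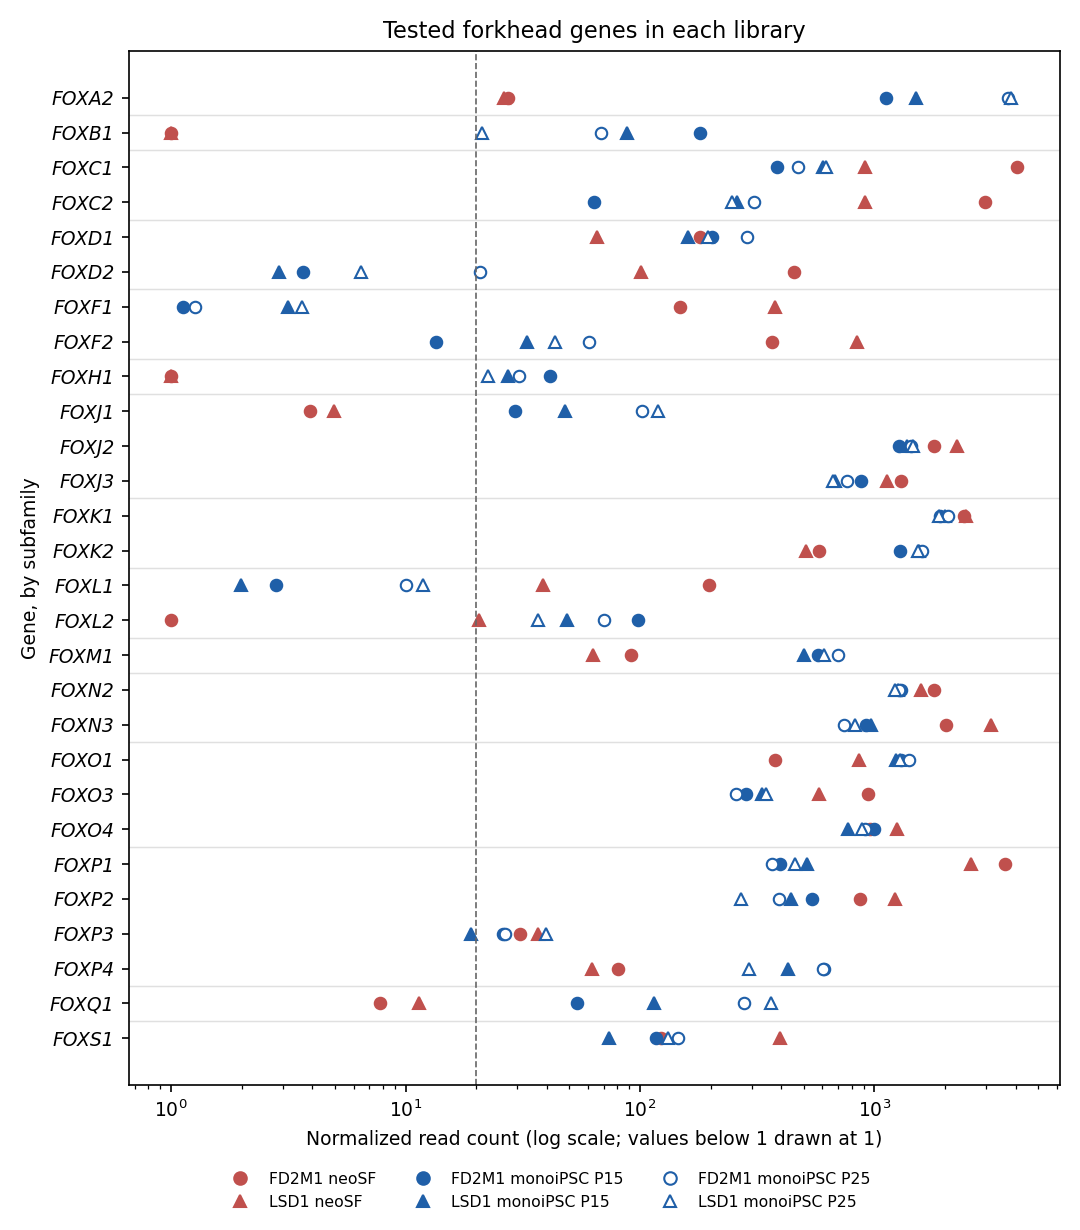
Normalized read counts of tested forkhead genes in each of the 6 libraries, on a log axis with values below 1 drawn at 1, red for neoSFs and blue for monoiPSCs (filled at passage 15, open at passage 25), circles for FD2M1 and triangles for LSD1, with a dashed line at the filter of 20 NRC. FOXA2 and FOXQ1 lay far to the right in monoiPSCs, FOXF1 and FOXD2 far to the left, and FOXK1 spanned only 1894 to 2463 NRC over all libraries.

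**Figure D2:**
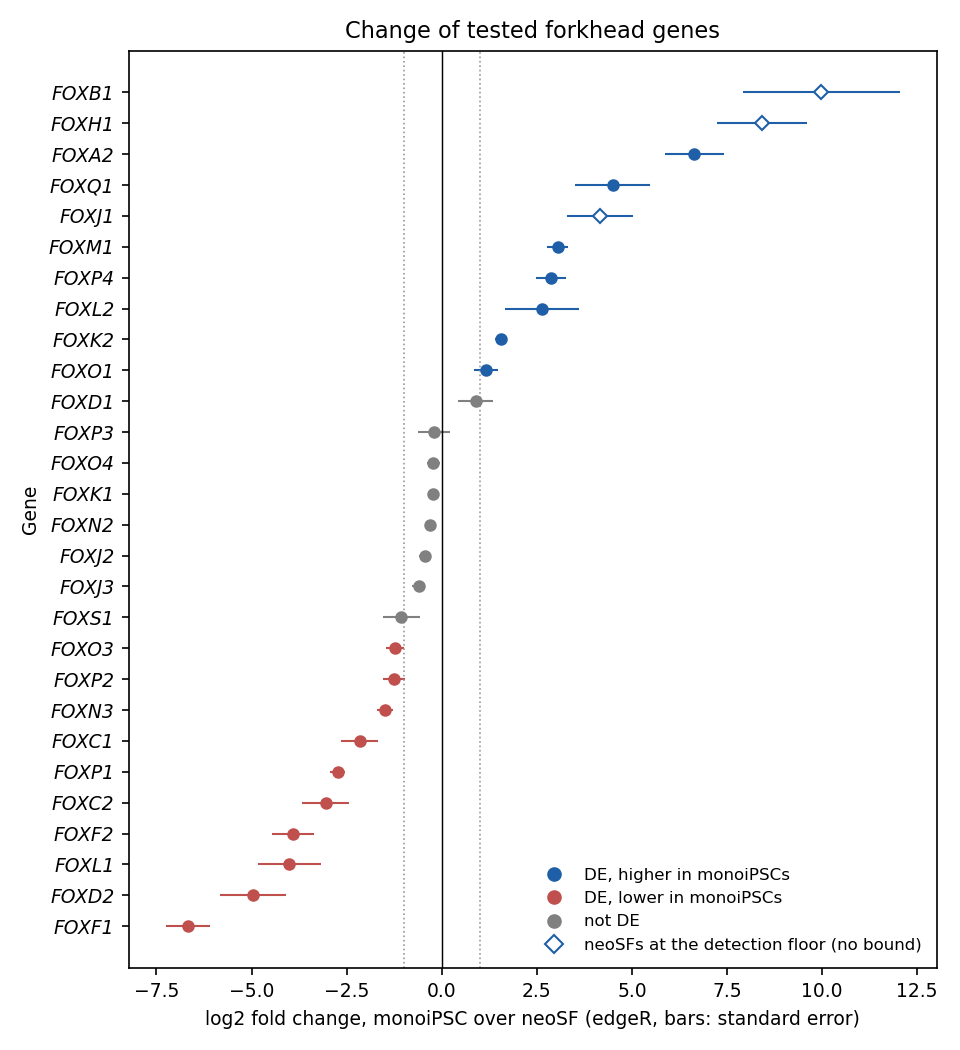
Log2 fold changes of tested forkhead genes, monoiPSCs over neoSFs, with standard errors from edgeR and coloured by the call. The values ran from FOXF1 at −6.68 to FOXA2 at 6.64 among genes above the detection floor, and open diamonds mark genes at the floor in neoSFs, whose plotted position is no bound.

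FOXA2, a pioneer factor of definitive endoderm, node and floor plate, rose most among the members detected in both cell types. FOXA2 (gene 100033242, chromosome 1 of MonDom5) had 27.3 and 26.4 NRC in the FD2M1 and LSD1 neoSFs. In monoiPSCs it had 1118 NRC in FD2M1 and 1511 NRC in LSD1 at passage 15, and 3719 and 3820 NRC at passage 25. The groups were far apart, and both lines were higher at the later passage. The mean was 26.9 ± 0.648 NRC in neoSFs (SD, n = 2) and 2542 ± 1427 NRC in monoiPSCs (SD, n = 4), a ratio of 94.6 and a log2 fold change of 6.64 (SE 0.77, adjusted p = 0.000311). Its relatives stayed low. FOXA1, which shares much of the liver and lung program of FOXA2, had 3 and 0 counts in neoSFs and 15.4 to 57.1 NRC in monoiPSCs. FOXA3, the third member and best known from liver, had 0 counts in both neoSFs and 11 to 20.9 NRC in monoiPSCs. Neither passed the filter, and on TMM-scaled counts they were at least 5.03-fold and at least 3.01-fold higher in monoiPSCs. In the fit without the filter both were called higher (adjusted p = 0.0374 and 0.00444).

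Other genes of the tissues that use FOXA2 moved with it in part. Of the 9 definitive endoderm markers, 4 were tested, of which CXCR4 and CER1 were higher and GATA6 and AFP were lower, while SOX17, GATA4, HHEX and APOA2 were at or near 0. CXCR4 and CER1 passed the filter in monoiPSCs alone, and GATA6 and AFP in neoSFs alone. The summed NRC of this list was 522 and 1212 in neoSFs and 1555 to 5835 in monoiPSCs. CER1, a secreted NODAL antagonist of anterior endoderm, made up most of it in monoiPSCs, at 1096 to 5354 NRC against 5.85 and 12.7 NRC in neoSFs. Of the 8 floor plate and node markers, SHH, CHRD and NKX6-1 were higher, SPON1 was lower and NKX2-2 was tested without a call. SHH, CHRD and NKX6-1 passed the filter in monoiPSCs alone. The summed NRC of that list was 4319 and 16295 in neoSFs, nearly all of it SPON1, and 2592 to 5833 in monoiPSCs. NOTO and LMX1A were low throughout. The part of these cell types in the level of FOXA2 was not tested.

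Several members were expressed in monoiPSCs and sat at the detection floor in both neoSFs. FOXB1, a gene of the embryonic neural plate and diencephalon, had 0 counts in both neoSFs. Its monoiPSC values were 181 NRC in FD2M1 and 87.6 NRC in LSD1 at passage 15, and 68.1 and 21.2 NRC at passage 25, so that the FD2M1 line was the higher one at both passages. The mean was 89.4 ± 67.0 NRC (SD, n = 4), and on TMM-scaled counts FOXB1 was at least 16.5-fold higher than in neoSFs (gene 100016324, chromosome 1, adjusted p = 0.00606). Of the 9 neural progenitor markers 3 were tested, of which NEUROG2 was higher and NES and HES5 were not called. In the order FD2M1 and LSD1 at passage 15, then FD2M1 and LSD1 at passage 25, PAX6 had 140, 41.3, 24.5 and 2.06 NRC and SOX1 203, 109, 84.1 and 18.0 NRC. NEUROG2 had 51.8, 29.4, 20.1 and 56.8 NRC and HES5 47.9, 113, 46.2 and 68.2 NRC in that order. PAX6 and SOX1 thus shared the order of FOXB1 and were named after their values were seen, and NEUROG2 and HES5 did not share it. The summed NRC of the list was 6229 and 24965 in neoSFs and 5450, 6761, 4416 and 10592 in the monoiPSCs, in that order. Nearly all of it was NES, which had 6143 and 24777 NRC in FD2M1 and LSD1 neoSFs, so the sum mostly follows NES. The part of such cells in FOXB1 was not tested.

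FOXH1 is the DNA-binding partner of SMAD2 and SMAD4 when NODAL or activin signals arrive. The gene so named (gene 107652054, chromosome 3) had 0 counts in both neoSFs, and 41.2, 27.3, 30.6 and 22.5 NRC in the monoiPSC libraries, in the order FD2M1 and LSD1 at passage 15 and FD2M1 and LSD1 at passage 25. The mean was 30.4 ± 7.93 NRC, and on TMM-scaled counts the gene was at least 5.59-fold higher (adjusted p = 0.00118). RefSeq's later annotation, on mMonDom1.pri, gives the symbol FOXH1 to another gene number, LOC100019271, which also lies on chromosome 3 of MonDom5. That gene had 0 counts in both neoSFs and 5.44 to 18.8 NRC in monoiPSCs, below the filter. How reads were split between the 2 entries was not given in the sources used here, so the level of FOXH1 is uncertain, while both entries were at 0 in neoSFs and above 0 in all 4 monoiPSC libraries.

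FOXJ1, the master regulator of motile cilia, had 3.9 and 4.94 NRC in the neoSFs, which is 2 and 3 counts. It had 29.2 and 48.0 NRC at passage 15 and 102 and 119 NRC at passage 25, in the FD2M1 and LSD1 lines. This was 74.5 ± 42.7 NRC (SD, n = 4), and on TMM-scaled counts at least 13.7-fold higher (gene 100022259, chromosome 2, adjusted p = 0.00436). FOXQ1, a target and effector of WNT and TGF-beta signaling in epithelia, had 7.8 and 11.4 NRC in neoSFs. Its monoiPSC values were 53.8 and 115 NRC at passage 15 and 279 and 362 NRC at passage 25, again FD2M1 before LSD1. The log2 fold change of FOXQ1 was 4.49 (SE 0.98, adjusted p = 0.00552; gene 100619048, chromosome 3). Both genes were above the neoSFs in each monoiPSC library and spread widely among the monoiPSCs.

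FOXL2, a factor of the ovary, the eyelid and the pituitary, made the weakest of the calls. It had 0 and 13 counts in the FD2M1 and LSD1 neoSFs, or 0 and 20.6 NRC, and 97.7, 48.9, 70.2 and 36.6 NRC in monoiPSCs, in the order FD2M1 and LSD1 at passage 15 and then at passage 25. The groups did not overlap, and the log2 fold change was 2.63 (SE 0.97, adjusted p = 0.0463; gene 100017397, chromosome 4). The call was lost without the FD2M1 neoSF library (log2 fold change 1.71), without the FD2M1 or LSD1 library at passage 15 or the FD2M1 library at passage 25 (adjusted p = 0.0868, 0.0729 and 0.0827), with only passage 15 or only passage 25 (adjusted p = 0.0942 and 0.153), with strain as a replicate block (2.55, adjusted p = 0.0751) and without the filter (adjusted p = 0.0505). Fits that leave out either neoSF library hold no spread between neoSF cultures, so only their log2 fold changes are given. Without the LSD1 neoSF library the one neoSF library left had 0 counts, so that the fitted value of 9.62 is no bound.

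The FOXC, FOXD2, FOXF and FOXL1 genes of mesoderm and mesenchyme fell in monoiPSCs. FOXF1, a target of hedgehog signaling in gut and lung mesenchyme, had 148 and 377 NRC in the FD2M1 and LSD1 neoSFs. It had 1.12, 3.16, 1.26 and 3.61 NRC in the monoiPSC libraries, in the order FD2M1 and LSD1 at passage 15 and then at passage 25, which is 2, 6, 2 and 7 counts. This was the largest fall of any tested member, at −6.68 on the log2 scale (SE 0.58, adjusted p = 9.64e-05; gene 100018141, chromosome 1). FOXF2, its close relative with a role in palate, gut and pericytes, had 365 and 844 NRC in neoSFs and 13.5, 33.1, 60.9 and 43.3 NRC in the monoiPSCs, in that order. The log2 fold change of FOXF2 was −3.91 (SE 0.56, adjusted p = 0.000817; gene 100028855, chromosome 3). Both FOXF genes were higher in the LSD1 than in the FD2M1 neoSFs, by 2.55-fold and 2.31-fold. Without the LSD1 neoSF library the log2 fold changes were −5.84 for FOXF1 and −3.17 for FOXF2.

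The FOXC pair, which acts in the eye, heart, kidney and vessels, showed the opposite order of the 2 neoSF cultures. FOXC1 (gene 100028901, chromosome 3) had 4076 NRC in FD2M1 and 915 NRC in LSD1 neoSFs, a 4.46-fold difference between the cultures. In monoiPSCs it was at 384 and 602 NRC at passage 15 and 472 and 622 NRC at passage 25, in the FD2M1 and LSD1 lines. The 4 monoiPSC libraries lay below both neoSFs, and the log2 fold change was −2.16 (SE 0.49, adjusted p = 0.0067). The 2 strains gave different sizes of fall here. Against the FD2M1 neoSFs, the FD2M1 monoiPSCs had log2 differences of −3.41 at passage 15 and −3.11 at passage 25. Against the LSD1 neoSFs, the LSD1 monoiPSCs had −0.60 and −0.56 at these passages. The interaction of strain and cell type was 2.66 on the log2 scale and did not pass the threshold after adjustment. With 1 neoSF library per strain, this fit holds no spread between neoSF cultures, and its error comes from the passages of each line. The FOXC1 call was lost without the FD2M1 neoSF library (−0.73, against −2.87 without the LSD1 neoSF library), with only passage 15 (adjusted p = 0.0503) and with only passage 25 (adjusted p = 0.0606).

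FOXC2 (gene 100018218, chromosome 1) had 2957 and 916 NRC in the FD2M1 and LSD1 neoSFs, a 3.23-fold difference. Its monoiPSC values were 63.4 and 259 NRC at passage 15 and 306 and 248 NRC at passage 25. The lowest value was that of the FD2M1 line at passage 15, and the same line had a 4.83-fold higher value at passage 25. The log2 fold change was −3.05 (SE 0.62, adjusted p = 0.00394), and it was −1.98 without the FD2M1 neoSF library (adjusted p = 0.0376) and −3.65 without the LSD1 neoSF library (adjusted p = 0.00297). FOXD2, a gene of kidney stroma and somites, had 455 and 101 NRC in FD2M1 and LSD1 neoSFs and 3.65, 2.89, 20.7 and 6.44 NRC in monoiPSCs, in the order FD2M1 and LSD1 at passage 15 and then at passage 25. It fell by 4.96 on the log2 scale (SE 0.86, adjusted p = 0.00197; gene 100619340, chromosome 2). Without the FD2M1 or the LSD1 neoSF library its log2 fold change was −3.53 or −5.68, and without the FD2M1 library at passage 25 it was −5.90 (adjusted p = 0.00128). FOXL1, which marks hedgehog-responsive stroma of the gut, had 197 and 38.5 NRC in neoSFs and 2.81, 1.99, 10.0 and 11.9 NRC in the monoiPSCs, in that order. For FOXL1 the log2 fold change was −4.01 (SE 0.83, adjusted p = 0.0044; gene 100025275, chromosome 1), and the call was lost without the FD2M1 neoSF library (−2.41), while without the LSD1 neoSF library the value was −4.77.

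In FOXC1, FOXC2, FOXD2 and FOXL1 the FD2M1 neoSF culture was therefore the higher one by 3.23-fold to 5.12-fold, and in FOXF1, FOXF2 and FOXS1 the LSD1 culture was, by 2.31-fold to 3.22-fold. The summed NRC of the neural crest markers also differed between the cultures, with 30073 in FD2M1 and 10314 in LSD1 neoSFs against 9634 to 19106 in monoiPSCs. Most of the difference between cultures was SOX9, with 19063 NRC in FD2M1 and 1519 NRC in LSD1 neoSFs. SNAI2 and PAX3 were also higher in the FD2M1 culture, while TFAP2A, TFAP2B and MITF were higher in the LSD1 culture. Most of the sum in monoiPSCs was TFAP2B. Of the 6 neural crest markers tested TFAP2B and PAX3 were higher, TFAP2A, SNAI2 and SOX9 were lower and MITF was not called. The pericyte and smooth muscle markers summed to 151443 and 200301 NRC in FD2M1 and LSD1 neoSFs and to 307 to 609 NRC in monoiPSCs, with 4 of 5 tested lower. With 1 culture per strain, strain and culture cannot be told apart, and the part of these cell types in the forkhead values was not tested.

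FOXD1, a factor of renal stroma and fibroblast lineages of the skin, did not follow FOXD2. It had 180 and 65.5 NRC in neoSFs and 160 to 287 NRC in monoiPSCs, with the FD2M1 neoSFs inside the range of the monoiPSCs. Its log2 fold change was 0.89 (SE 0.45, adjusted p = 0.121), and it became a call when strain was a replicate block (1.00, adjusted p = 0.0426) or without the FD2M1 neoSF library (1.79, adjusted p = 0.0161), while without the LSD1 neoSF library it was at 0.34 (adjusted p = 0.509). FOXS1, expressed in pericytes and in neural crest derivatives, had 123 and 396 NRC in neoSFs and 74.1 to 145 NRC in monoiPSCs, with a log2 fold change of −1.06 (SE 0.48, adjusted p = 0.0871). Without the FD2M1 neoSF library FOXS1 was at −1.67, and without the LSD1 neoSF library it was at 0.03.

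FOXM1, which activates the genes of G2 and mitosis together with the MuvB complex, rose in monoiPSCs. FOXM1 (gene 100020336, chromosome 8) had 91.6 and 63.3 NRC in FD2M1 and LSD1 neoSFs. It had 573, 503, 702 and 610 NRC in the monoiPSC libraries, in the order FD2M1 and LSD1 at passage 15 and then at passage 25. The 4 monoiPSC values lay within a narrow range and far above both neoSFs. The means were 77.4 ± 20 NRC (SD, n = 2) and 597 ± 83.1 NRC (SD, n = 4), a ratio of 7.71 and a log2 fold change of 3.05 (SE 0.27, adjusted p = 9.91e-05).

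The known targets of FOXM1 were all on the same side. All 19 targets tested, of 20 listed, were DE and higher in monoiPSCs, with a median log2 fold change of 3.95 beside 0.08 for all genes tested. TOP2A, the topoisomerase of dividing cells, had a log2 fold change of 5.08 (adjusted p = 2.06e-05). CCNB1, the cyclin of mitosis, had 4.42 (adjusted p = 3.81e-05), PLK1, a mitotic kinase, 4.45 (adjusted p = 3.58e-05) and BIRC5, the survivin of the chromosomal passenger complex, 3.18 (adjusted p = 4.06e-05). Of 12 tested activators of FOXM1 and subunits of the DREAM and MuvB complexes, 8 were higher, none was lower and the median was 2.21. PLK1 is counted both there and among the targets. The subunits LIN37, LIN52 and LIN54 and the repressor E2F4 were not called. CDK1, the kinase that acts on FOXM1, had a log2 fold change of 4.08 (adjusted p = 5.99e-05), CCNA2, cyclin A, 4.00 (adjusted p = 7.6e-05) and the MuvB subunit RBBP4 2.23 (adjusted p = 0.000109). These genes are also general marks of dividing cells, and the share of dividing cells in the cultures was not measured here.

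FOXJ2, FOXJ3, FOXK1, FOXK2, FOXN2, FOXN3, FOXO1, FOXO3, FOXO4, FOXP1, FOXP2 and FOXP4 were expressed in both cell types, and within most of these subfamilies one paralog was DE while another was not or changed the other way. FOXP1, a repressor of many tissues, had 3609 and 2581 NRC in the FD2M1 and LSD1 neoSFs and 396, 516, 365 and 457 NRC in monoiPSCs, in the order FD2M1 and LSD1 at passage 15 and then at passage 25. Its log2 fold change was −2.74 (SE 0.20, adjusted p = 4.44e-05; gene 100012116, chromosome 6), a ratio of 7.14 between neoSFs and monoiPSCs. FOXP4, a paralog that forms dimers with FOXP1 and FOXP2, had 80.6 and 62.3 NRC in neoSFs and 608, 427, 601 and 293 NRC in monoiPSCs, in that order. It rose by 2.87 on the log2 scale (SE 0.40, adjusted p = 0.000697; gene 100030259, chromosome 2), a ratio of 6.75. FOXP1 and FOXP4 thus moved in opposite directions, and for neither did the groups overlap.

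FOXP2, known for its role in neural circuits of vocal learning, had 865 and 1224 NRC in neoSFs and 542, 442, 393 and 269 NRC in monoiPSCs, in the order FD2M1 and LSD1 at passage 15 and then at passage 25. Its log2 fold change was −1.25 (SE 0.29, adjusted p = 0.00698; gene 100011531, chromosome 8), and the call was lost without the LSD1 neoSF library (−0.97). FOXP3, the factor of regulatory T cells, was low, at 30.7 and 36.8 NRC in neoSFs and 19.0 to 39.6 NRC in monoiPSCs, with a log2 fold change of −0.20 (SE 0.43, adjusted p = 0.709). The 4 immune markers present summed to 114 and 128 NRC in neoSFs and 54.9 to 71.4 NRC in monoiPSCs.

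A ratio of 2 paralogs within a library does not depend on how libraries are scaled to each other. The log2 ratio of FOXP4 to FOXP1 went from −5.43 ± 0.08 in neoSFs (SD, n = 2) to 0.11 ± 0.67 in monoiPSCs (SD, n = 4), a difference of 5.53. That of FOXP4 to FOXP2 differed by 4.07 and that of FOXP2 to FOXP1 by 1.46. Of 10 such pairs, 9 did not overlap between cell types, beside 73.2% of single genes tested, and the share over other gene pairs was not computed. The FOXO pairs share genes with each other, as do the FOXP pairs, so the 10 pairs are not independent. An exact two-sided permutation test over the 15 splits of 6 libraries gave p = 0.133 for each of the 9, which is the smallest it can give, and 0.148 after adjustment over the 10 pairs. These ratios also depend on transcript length and compare libraries, not the abundance of one paralog with another.

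**Figure D3:**
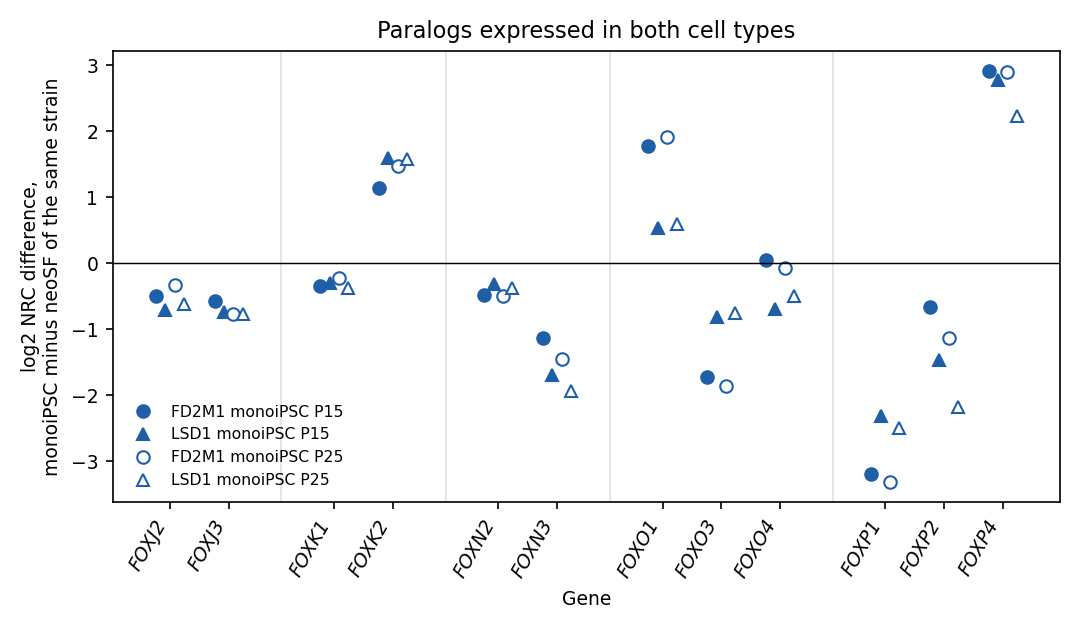
Log2 difference in normalized read count between each monoiPSC library and the neoSF library of its own strain for the FOXJ, FOXK, FOXN, FOXO and FOXP genes expressed in both cell types, circles for FD2M1 and triangles for LSD1, filled at passage 15 and open at passage 25. FOXP4 lay between 2.23 and 2.91 and FOXP1 between −3.31 and −2.32, while FOXK1 stayed between −0.38 and −0.23.

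The FOXK pair showed a rise of one paralog. FOXK2, which with FOXK1 binds forkhead sites and recruits SIN3A and the BAP1 deubiquitinase complex, had 580 and 510 NRC in FD2M1 and LSD1 neoSFs. It had 1280, 1545, 1601 and 1528 NRC in the monoiPSCs, in the order FD2M1 and LSD1 at passage 15 and then at passage 25, a log2 fold change of 1.55 (SE 0.16, adjusted p = 0.000216; gene 100022465, chromosome 2). FOXK1 had 2416 and 2463 NRC in neoSFs and 1894 to 2054 NRC in monoiPSCs. Its log2 fold change was −0.22 (SE 0.12, adjusted p = 0.157). Their within-library log2 ratio went from −2.16 ± 0.15 to −0.40 ± 0.12, a difference of 1.76. The 11 tested partners of FOXK factors had a median log2 fold change of 0.00, with SAP30 and DVL3 higher, ASXL2 and KDM1B lower and 7 not called. DVL3, a Dishevelled protein of WNT signaling that FOXK factors carry to the nucleus, was higher at 1.93 (adjusted p = 9.89e-05), and OGT (0.05, adjusted p = 0.853), ASXL1 (−0.11, adjusted p = 0.51) and SIN3A (0.23, adjusted p = 0.207) were not called.

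Within FOXO, the factors that insulin signaling holds in the cytoplasm, FOXO1 rose and FOXO3 fell. FOXO1 (gene 100021587, chromosome 4) had 377 and 857 NRC in FD2M1 and LSD1 neoSFs and 1293, 1234, 1411 and 1289 NRC in monoiPSCs, in the order FD2M1 and LSD1 at passage 15 and then at passage 25. The monoiPSC values were close together and the neoSF values were not. The log2 fold change was 1.17 (SE 0.31, adjusted p = 0.0132), and without the FD2M1 neoSF library it was 0.70, under 2-fold, and without the LSD1 neoSF library 1.90. With only passage 15 or only passage 25 the adjusted p was 0.0715 and 0.0616. The interaction of strain and cell type was −1.30 for FOXO1 and did not pass the threshold after adjustment. The limit of 1 neoSF library per strain holds here too.

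FOXO3 (gene 100021705, chromosome 2) had 939 and 583 NRC in neoSFs and 284, 332, 258 and 346 NRC in monoiPSCs, a log2 fold change of −1.22 (SE 0.24, adjusted p = 0.00329). Without the FD2M1 neoSF library it was −0.84, also under 2-fold. FOXO4, on the X chromosome, had 960 and 1250 NRC in neoSFs and 768 to 996 NRC in monoiPSCs, with a log2 fold change of −0.22 (SE 0.18, adjusted p = 0.322). The log2 ratio of FOXO3 to FOXO1 went from 0.38 ± 1.32 in neoSFs to −2.11 ± 0.27 in monoiPSCs. FOXO6 did not pass the filter, with 17.2 and 9.5 NRC in neoSFs and 15.3 to 18.2 NRC in 3 monoiPSC libraries, against 119 NRC in the LSD1 line at passage 25.

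Genes around the FOXO factors did not move to one side. Of 18 tested upstream regulators IRS2, PIK3CB, SGK1, SKP2 and XPO1 were higher, PIK3R1 was lower and 12 were not called, with a median of −0.09. The exportin XPO1 had a log2 fold change of 1.07 (adjusted p = 0.00772), while YWHAZ, a 14-3-3 protein that binds phosphorylated FOXO (−0.28, adjusted p = 0.202), and the kinase AKT1 (−0.56, adjusted p = 0.00724) were not called, the latter for a change under 2-fold. Of 17 tested FOXO targets 6 were higher, 6 were lower and 5 were not called, with a median of −0.33. CDKN1A, the cell cycle inhibitor p21, fell by 1.37 (adjusted p = 0.00115). SESN3, a stress-induced inhibitor of mTORC1, fell by 2.85 (adjusted p = 1.86e-05). IRS2, an adaptor of the insulin receptor counted in both lists, was higher at 1.57 (adjusted p = 0.000135). TXNIP, an inhibitor of glucose uptake, was not called (−1.38, adjusted p = 0.126), and its LSD1 library at passage 25 had 5557 NRC against 929 to 1367 NRC in the other 3 monoiPSC libraries.

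FOXN3, a checkpoint-linked repressor, fell while its paralog FOXN2 was not called. FOXN3 (gene 100015594, chromosome 1) had 2022 and 3154 NRC in neoSFs and 918, 971, 740 and 827 NRC in monoiPSCs, in the order FD2M1 and LSD1 at passage 15 and then at passage 25. In monoiPSCs FOXN3 had a log2 fold change of −1.49 (SE 0.21, adjusted p = 0.000717). FOXN2 had 1801 and 1581 NRC in neoSFs and 1227 to 1294 NRC in monoiPSCs, a log2 fold change of −0.32 (SE 0.13, adjusted p = 0.062). FOXJ2 and FOXJ3, broadly expressed factors that do not share the ciliary role of FOXJ1, were lower by less than 2-fold. FOXJ2 had 1791 and 2244 NRC in neoSFs and 1277 to 1461 NRC in monoiPSCs (−0.45, SE 0.15, adjusted p = 0.0308), and FOXJ3 had 1305 and 1134 NRC against 665 to 874 NRC (−0.61, SE 0.17, adjusted p = 0.0155). The log2 ratio of FOXJ3 to FOXJ2 was the 1 pair that overlapped between cell types, with a difference of −0.18 (exact permutation p = 0.4).

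The partners and targets of the other members were divided. Of 10 FOXP corepressors tested HDAC1, HDAC2 and CTBP2 were higher, 1 was lower and 6 were not called, with a median of 0.63. HDAC1, a histone deacetylase, was higher at 2.16 (adjusted p = 0.000251) and CHD4, the motor of the NuRD complex, missed the fold threshold at 0.96 (adjusted p = 0.00156), as did CTBP1 at 0.55 (adjusted p = 0.0107).

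Of 9 tested genes of the NODAL receptor chain and the SMAD partners of FOXH1, 4 were higher, 1 was lower and 4 were not called, with a median of 0.81. The receptor ACVR2A was lower at −3.01 (adjusted p = 2.34e-05), SMAD4 (0.25, adjusted p = 0.282) and SMAD2 (−0.46, adjusted p = 0.0336) were not called, and TGIF2, a SMAD corepressor, was higher at 1.47 (adjusted p = 0.000175). The other genes called higher were TDGF1, the NODAL coreceptor, with 0 and 1.58 NRC in neoSFs and 451 to 1209 NRC in monoiPSCs, ACVR2B at 5.76 (adjusted p = 1.51e-05) and GDF1 at 2.71 (adjusted p = 0.000171), named here after their values were seen. TDGF1 and ACVR2B passed the filter in monoiPSCs alone, and TDGF1 is also counted among the pluripotency markers. Of 12 listed NODAL targets, 9 were present and 4 were tested. Of these 4, 3 were higher, namely CER1 (8.63, adjusted p = 0.000324), FOXA2 itself and MIXL1 (1.84, adjusted p = 0.0028), and 1 was lower. CER1 passed the filter in monoiPSCs alone and the lower gene in neoSFs alone, which left them less room to miss a call. CER1 is also counted in the definitive endoderm list, and FOXA2 is a member. Over all genes tested, 24.3% were higher and 21.6% lower. The untested targets were low in monoiPSCs. NODAL itself had 0 to 8.06 NRC there, GSC 0 to 11.4 NRC and EOMES 0 to 1.03 NRC. The activity of the NODAL pathway was not tested.

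Of 15 motile cilia genes present in the tables, 8 were tested, of which DNAH5, DNAH11, SPAG6, CCDC40 and RFX3 were higher, DNAH9 was lower and RFX2 and CCDC39 were not called. DNAH5, SPAG6 and CCDC40 passed the filter in monoiPSCs alone and DNAH9 in neoSFs alone, which left them less room to miss a call. The median was 2.1, beside 0.08 for all genes tested, of which 24.3% were higher and 21.6% lower. DNAH11, a dynein of ciliary arms, had a log2 fold change of 4.51 (adjusted p = 3.18e-05) and RFX3, a transcription factor that works with FOXJ1, 2.39 (adjusted p = 0.000525). RFX2 missed the fold threshold at 0.82 (adjusted p = 0.00589) and DNAH9, another dynein, had −3.23 (adjusted p = 0.0045). MCIDAS, which switches on multiciliated cells, was at 0 in every library.

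**Figure D4:**
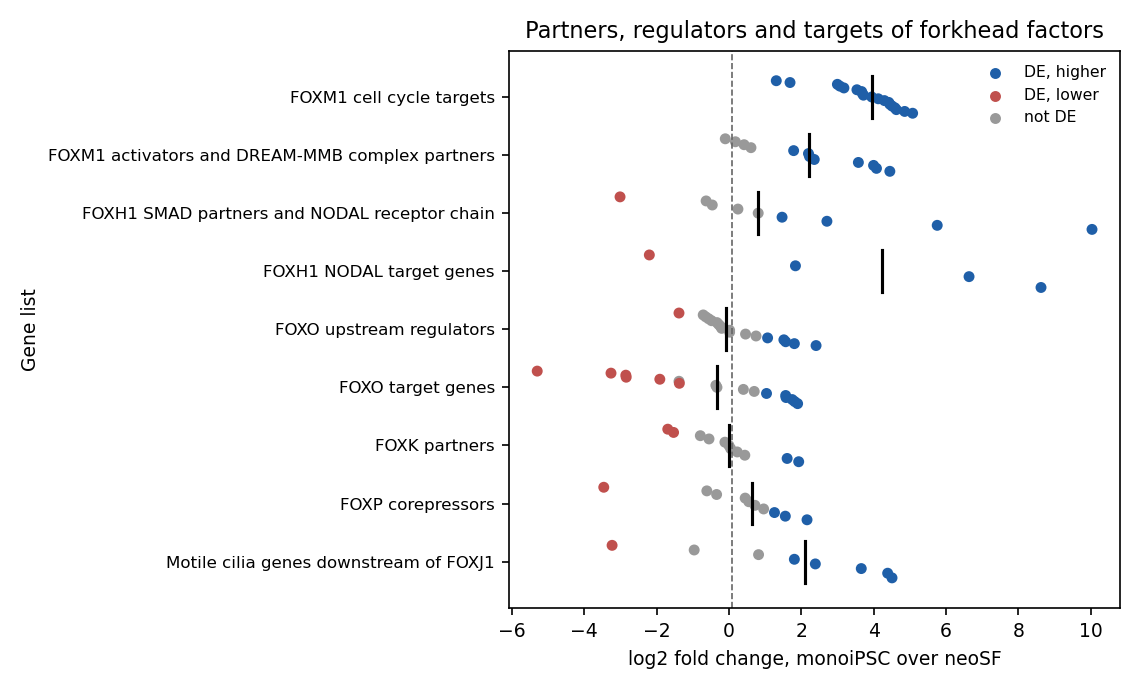
Log2 fold changes, monoiPSCs over neoSFs, of the tested genes in each list of partners, regulators and targets of forkhead factors, 1 point per gene coloured by its call, with a dashed line at the median of all genes tested (0.08). All 19 FOXM1 targets lay to the right, while FOXO targets lay on both sides (6 higher and 6 lower).

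No forkhead gene passed the threshold between passage 25 and passage 15 in edgeR's quasi-likelihood test with line as a block, in which 23 members were tested and 0 of all 12252 genes were called. An unadjusted p under 0.05 was reached by 5 of these members, beside 9.35% of all genes. FOXA2 was higher at passage 25 by 1.52 on the log2 scale (adjusted p = 0.100), and by 3.33-fold in FD2M1 and 2.53-fold in LSD1. FOXQ1 was higher by 1.99 (adjusted p = 0.189), with folds of 5.19 and 3.14 in FD2M1 and LSD1. DESeq2, which called 115 genes or 0.939% of all, called FOXA2 (adjusted p = 1.84e-08) and FOXQ1 (adjusted p = 0.000535). FOXJ1 differed by 1.54 (adjusted p = 0.343), FOXB1 by −1.73 (adjusted p = 0.297) and FOXP2 by −0.60 (adjusted p = 0.504), each in the same direction in both lines.

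The passage difference of FOXA2 stood beside the same direction in some genes of the definitive endoderm and the floor plate and node lists. None of them was called between passages by edgeR, and NKX2-2 of these lists differed by only 0.16 on the log2 scale. CHRD, a secreted BMP antagonist of the node, had 209 and 285 NRC at passage 15 and 1113 and 990 NRC at passage 25 in the FD2M1 and LSD1 lines. CER1 went from 1096 and 2600 NRC to 5354 and 5231 NRC, and NKX6-1, a factor of ventral neural tube, from 53.1 and 77.6 NRC to 224 and 192 NRC. SHH, the hedgehog ligand of node and floor plate, had 172 and 1470 NRC at passage 15 and 1360 and 935 NRC at passage 25, so that the lines moved in opposite directions. CXCR4, with 449 and 752 NRC at passage 15 and 442 and 463 NRC at passage 25, was not higher at passage 25 in either line. Whether cells of these types were more frequent at passage 25 was not tested.

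**Figure D5:**
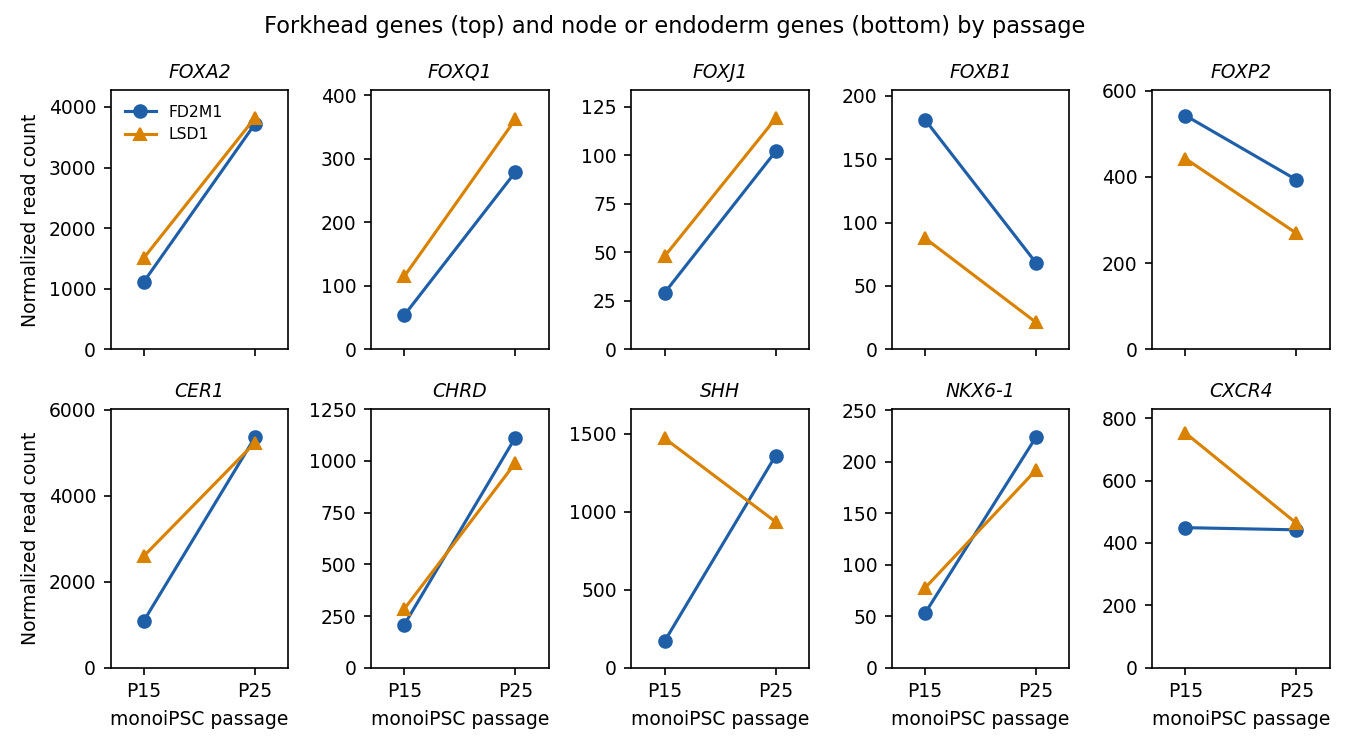
Normalized read counts of 5 forkhead genes (top) and 5 genes of the floor plate and node or the endoderm list (bottom) at passage 15 and passage 25. Blue circles are the FD2M1 and orange triangles the LSD1 monoiPSC line, and each panel has its own axis from 0. FOXA2 went from 1118 and 1511 to 3719 and 3820, CER1 and CHRD went up in both lines, and SHH went up in FD2M1 and down in LSD1.

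Between the LSD1 and FD2M1 lines edgeR also called no forkhead gene and 0 of all genes. An unadjusted p under 0.05 was reached by 4 members, beside 14.2% of all genes, and DESeq2 called none of the members while it called 192 genes or 1.57% of all. The 4 were FOXB1 at −1.34 (adjusted p = 0.239), FOXP4 at −0.77 (adjusted p = 0.248), FOXC1 at 0.53 (adjusted p = 0.319) and FOXL2 at −0.96 (adjusted p = 0.319), where a negative value is lower in LSD1. The interaction of strain and cell type had an adjusted p of at most 0.05 for none of the 29 tested members and 0.0841% of all genes, and an unadjusted p under 0.05 for 6 members, beside 9.13% of all genes.

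The remaining members were at or near the detection floor. FOXB2, FOXE3 and FOXI2 had at most 3 counts in every library. FOXE1, a thyroid factor, had 0 counts in neoSFs and 1 to 4 counts in monoiPSCs. FOXI1, of the kidney and inner ear, had 0 to 6 counts, FOXI3, of the ectodermal placodes, had 0 counts in neoSFs and 2 to 12 counts in monoiPSCs, and FOXN1, of the thymus epithelium and hair, had 0 to 6 counts. FOXR1 had 4.6 and 12.5 NRC in neoSFs, or 2 and 8 counts, against 0 to 2 counts in monoiPSCs. With FOXA1, FOXA3 and FOXO6 these make up the 11 untested members. In the fit without the filter, which covers all members, 2 of these 11 were called higher (FOXA1 and FOXA3), FOXR1 was called lower (adjusted p = 0.0378) and 8 were not called. For the members with few counts in every library this depth gives no firm statement on a difference.

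By gene number, 38 of the 40 members matched RefSeq's table for mMonDom1.pri, all but FOXE3 and FOXH1. FOXD3, FOXD4, FOXL3 and FOXN4 are forkhead symbols of that table which no gene of the deposited tables carries as its symbol. By gene number, FOXL3 is LOC100027914 and FOXD4 is LOC100021976 in the deposited tables. FOXL3, a germ cell factor, had 0 and 2.11 NRC in neoSFs and 83.5, 43.1, 39.5 and 25.3 NRC in monoiPSCs, at least 8.8-fold higher on TMM-scaled counts (adjusted p = 0.00244). FOXD4 had at most 2 counts in each library. Neither is counted among the 40 members.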

How the data were processed

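The 6 RNA-seq libraries, 2 of neoSFs and 4 of monoiPSCs, were used. The authors aligned reads to MonDom5 with StrandNGS, filtered them and counted them on RefSeq genes. The values deposited as raw counts were fractional in 86.8% of values above 0 (tolerance 1e-06), so these estimated counts were rounded to whole numbers. NRCs come from a second table by the authors, of DESeq-normalized log2 values. The submitters' processing notes name DESeq and bcl2fastq. Separate counting of the mates of a pair was neither stated nor denied in the sources used here.

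Rounded counts of genes with at least 20 NRC in both neoSF or all 4 monoiPSC libraries were tested with edgeR 4.0.16 (TMM, glmQLFit, glmQLFTest, R 4.3.3), without a block. Passages were compared with line as a block, and lines with passage as a block. Fits were tested on simulated data. Alternatives were RLE scaling, DESeq2 1.42.0, limma 3.58.1 on the log2 values, other filters, a replicate block by strain, each passage alone and leaving out each library. The interaction and the paralog ratios were added after the data were seen. The interaction fit has 1 neoSF library per strain, so its p-values rest on the spread between passages within the lines. Strain pairs each line with the neoSF culture it was derived from, although the strain differences of the 2 cell types correlated at r = 0.04 over 13072 genes. "At least" folds compare TMM-scaled counts with 3 counts in the neoSF library where these weigh most. Such floors cover counting error only.

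Members are given with each library's value where DE. From each list of partners or targets, up to 4 tested genes of highest mean NRC were named, and others are said to be chosen later. Members and lists were chosen with earlier results of these data known. A few genes that enter the counts and medians are not reported here by name.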

Additional observations from a re-analysis of the deposited data

Results flagged for a closer look

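For 2 forkhead genes that were too low to be tested, 1 monoiPSC library lay far from the other 3, by Dixon's test at the 95% level. FOXA1 had 57.1 NRC in the FD2M1 line at passage 25 and 15.4 to 19.1 NRC in the other monoiPSC libraries, with a gap of 0.913 of the range. FOXO6 had 119 NRC in the LSD1 line at passage 25 and 15.3 to 18.2 NRC in the others, with a gap of 0.972 of the range. Chance alone gives such a library in about 1 of 20 groups, and there were 40 forkhead genes.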

How the results depend on the processing

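Over 14 alternatives to the comparison of cell types the number of forkhead genes called higher lay between 8 and 12 and the number called lower between 8 and 12, and no DE member reversed its direction. Of the members that were not DE, FOXS1 changed sign without the LSD1 neoSF library (0.03) and FOXP3 with only passage 25 (0.06). Of the 21 calls, 14 held in every alternative that gave a value, and those lost in at least 1 included FOXC1, FOXL1, FOXL2, FOXO1, FOXO3 and FOXP2. With strain as a replicate block 10 were higher and 11 lower, and the block ended the call of FOXL2 and made one of FOXD1 but changed no other. Leaving out each library gave 9 to 10 higher and 8 to 11 lower, and the lowest count was without the FD2M1 neoSF library. When either neoSF library is left out, calls kept or lost rest on no spread between neoSF cultures. Without the FD2M1 neoSF library the LSD1 culture alone stands for neoSFs and is assumed to vary like the monoiPSCs. Without that library 0 regulators of FOXO were called lower instead of 1, and over all libraries left out in turn this number and that of the NODAL targets called lower ranged from 0 to 1. Between passages DESeq2 called 2 forkhead genes higher and edgeR 0. Without the filter the median log2 fold change of all genes moved by 0.14, with limma by −0.10 and with RLE or DESeq2 by −0.05. Genes under about 5 counts in neoSFs are limited by depth.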
